A study of Mus musculus with 6 samples.

Results

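The genes described here are 10 that mark eosinophils, basophils and mast cells, taken by symbol from a table of 47593 gene rows, in which all 10 had a row. They are 4 eosinophil-associated ribonucleases (Ear1, Ear2, Ear6 and Ear10), the eosinophil granule proteins Prg2 and Epx, and the basophil and mast cell enzymes Mcpt8, Hdc, Cpa3 and Gzmb. RNA had been sequenced from mouse femur bone marrow cells selected for c-Kit and infected with MSCVneo, a retroviral vector with G418 resistance that carried the leukaemia fusion MLL-AF9. All cultures were selected on G418 and passaged serially in methylcellulose with cytokines. The WT group (3 libraries) carried the unchanged fusion, and the E531R group (3 libraries) carried it with a substitution in its AF9 part reported in the series to abolish binding to BCOR, a transcriptional corepressor. No library of cells without the fusion was among the 6, both groups share the vector and the culture, and the labels give neither the cytokines nor whether replicates were separate cultures or animals. The p-values therefore measure only the spread between these libraries, which may be technical.

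Eosinophils, basophils and mast cells are granulocytes of allergic and antiparasite responses that arise from marrow progenitors under cytokines such as interleukin 5, interleukin 3 and stem cell factor. Their granules hold cationic proteins, ribonucleases and a peroxidase in eosinophils, and histamine, serine proteases and carboxypeptidase A3 in basophils and mast cells. GATA1, GATA2 and C/EBP factors are known regulators of these lineages. Mouse Ear genes belong to the ribonuclease A superfamily, have multiplied by recent duplication and are also read in some macrophages and monocytes.

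Ear2 rose 35.5-fold in E531R cells and Mcpt8 fell 1.90-fold, while Hdc did not pass the test. The other 7 genes were at or near 0 reads in WT cells, and of these Ear6 had the most reads in E531R cells. Most of the 10 genes were thus scarcely read in either group, 9 of 13 defining markers of mast cells were at 0, and 4 of 6 eosinophil markers had reads but averaged under 10. Of the 10 genes 3 averaged 10 or more across the 6 libraries and were tested with limma over 12991 genes. At an adjusted p under 0.05, 1 was higher, where 10.4% of all tested genes were higher, and 1 lower, where 9.53% were lower. These counts are too few to set the genes apart from the background.

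The libraries held between 14161139 and 33459668 reads assigned to genes. All values are read counts divided by a size factor of the library, called normalised read counts here. A floor of 3 reads, under which a gene is treated as not measurable, came to between 2.08 and 4.79 normalised read counts, depending on the library. WT replicate 3 stood apart: across tested genes its log2 values correlated with those of the other WT libraries at r = 0.977 and 0.978, against 0.994 between those 2 and at least 0.995 within E531R. Without it 24.3% of genes were higher and 23.1% lower, and the calls of the 3 tested genes did not change, with log2 fold changes of 5.12 for Ear2, -0.93 for Mcpt8 and 0.19 for Hdc.

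**Figure D1:**
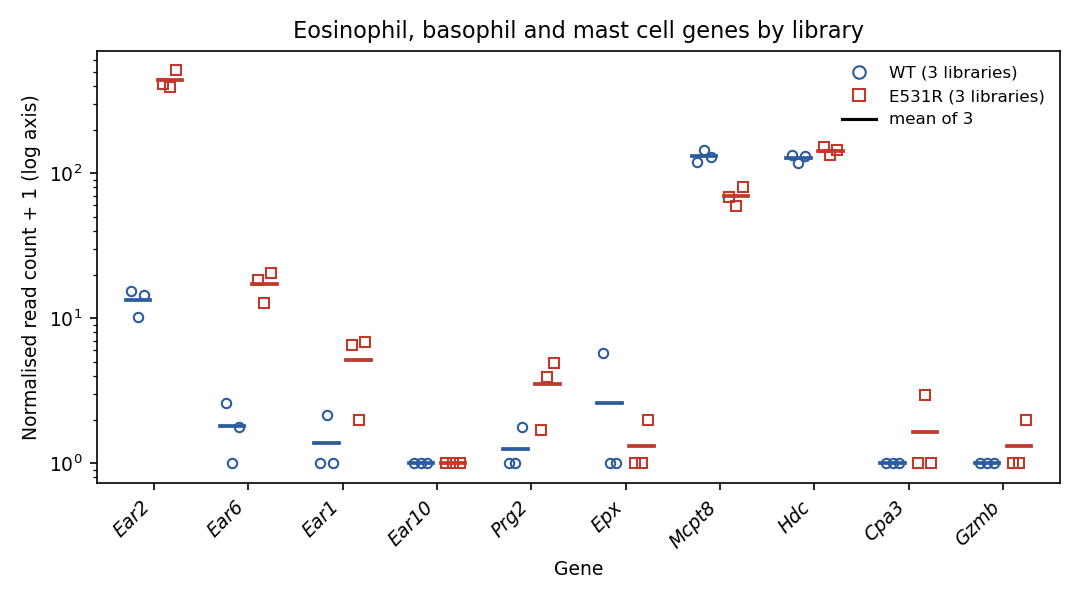
Normalised read count plus 1 on a log y axis for the 10 genes (x axis), with a symbol for each library (WT as blue circles, E531R as red squares) and a bar at the mean of 3. Ear2 lies between 391 and 511 in E531R and between 9.18 and 14.4 in WT, Mcpt8 is lower in each E531R library, and Ear10 lies at 0 reads throughout.

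The ribonuclease genes Ear1, Ear2 and Ear10 lie within one cluster on mouse chromosome 14 (GRCm38, GENCODE M21), with Ear2 at 44102654 to 44103534 on the plus strand, Ear1 at 43818765 to 43875517 and Ear10 at 43922720 to 43923559, both on the minus strand. Ear6 lies 7.75 Mb further on the same chromosome, at 51853699 to 51854643. The sequences below show how alike these genes are, since that bears on how reads can be assigned to them. They are the first 60 coding bases in the GENCODE M21 transcripts, and capitals mark bases that differ from Ear2.
Ear2: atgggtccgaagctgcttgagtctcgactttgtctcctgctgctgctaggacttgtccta
Ear1: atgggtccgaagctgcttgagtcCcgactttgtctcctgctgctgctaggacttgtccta
Ear10: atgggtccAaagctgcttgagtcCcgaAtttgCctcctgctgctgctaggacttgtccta
Ear6: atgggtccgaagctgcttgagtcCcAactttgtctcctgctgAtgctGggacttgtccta
Over the whole coding sequence Ear2 was 97.0% identical to Ear10, 95.1% to Ear1 and 87.6% to Ear6. Of all stretches of 100 bases in the Ear2 transcript 13.9% also occurred in another gene, each of them in Ear10, and of stretches of 50 bases 41.5% did. For Ear1 these shares were 23.9% and 57.4%, for Ear10 24.2% and 39.9%, and for Ear6 0% and 1.07%. Other genes here include pseudogenes. Most of the shared Ear1 stretches of 100 bases occurred in the pseudogene Ear-ps9 and the rest in Ear10. Only at 50 bases did Ear1 also share stretches with Ear2. Ear-ps9, at 43874875 to 43875537, overlaps the annotated span of Ear1, so much of the Ear1 share does not concern Ear2 or Ear10. Reads from shared stretches cannot be assigned to one of these genes, and with read length and the handling of such reads not given in the sources used here, their split between Ear2, Ear1 and Ear10 is uncertain. The other 6 genes shared no stretch of 50 bases with another gene.

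Ear2, a secreted eosinophil-associated ribonuclease, had normalised read counts of 14.4, 9.18 and 13.4 in WT replicates 1, 2 and 3. In E531R replicates 1, 2 and 3 it had 410, 391 and 511. Every E531R library lay far above every WT library, a separation in this direction seen in 21.2% of tested genes. The means were 12.3 ± 2.75 and 437 ± 64.5 (SD, n = 3 each), and the log2 fold change was 5.05 (SE 0.20; limma adjusted p = 1.26e-05). The WT values rest on 34 reads over 3 libraries and the E531R values on 1517, and the ratio of these reads, scaled to depth, was 35.3 with a 95% counting interval of 25.2 to 51.2. In bulk RNA the number of cells with a transcript and the amount per cell cannot be told apart, here and for every gene below.

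Ear6, the ribonuclease of the second locus, had a mean under 10 and was not tested in the main comparison. Its normalised read counts were 1.60, 0 and 0.787 in WT replicates 1, 2 and 3, which are 1, 0 and 1 reads. In E531R replicates 1, 2 and 3 they were 17.4, 11.7 and 19.5, from 25, 12 and 20 reads. The groups did not overlap, a separation in this direction seen in 21.2% of tested genes, a share that leaves out Ear6 and other untested genes. The read ratio was 22.6 with a 95% counting interval of 5.97 to 191. With a minimum of 10 reads over the 6 libraries, an alternative added after the data were seen, edgeR on whole reads called it higher (log2 fold change 4.28, adjusted p = 0.00188), as it did 8.2% of genes. DESeq2 under the same minimum gave an adjusted p of 0.00143, with 7.53% of genes higher, and limma with no filter gave 0.00178, with 5.88% higher. The authors' deposited table gives Ear6 an adjusted p of 7.37e-05, and 7.91% of its genes were higher. Ear6 reached the minimum of 10 reads only through the E531R libraries, so its passing that filter already required a difference.

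Ear1, whose coding sequence nearly matches that of Ear2, had 0, 1 and 0 reads in WT replicates 1, 2 and 3 and 8, 1 and 6 in E531R replicates 1, 2 and 3. As normalised read counts these were 0, 1.15 and 0 against 5.56, 0.973 and 5.84. The groups overlapped through E531R replicate 2. The read ratio was 11.9 with a counting interval of 1.83 to 500.2, and edgeR with a minimum of 10 reads gave an adjusted p of 0.0984. Like Ear6, Ear1 reached that minimum only through the E531R libraries. In E531R libraries Ear1 had between 0.249% and 1.36% as many reads as Ear2, and whether any of them came from Ear2 transcripts was not tested. Ear10, the closest relative of Ear2 in coding sequence, had 0 reads in all 6 libraries, so it lay under the floor of 3 reads in each.

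**Figure D2:**
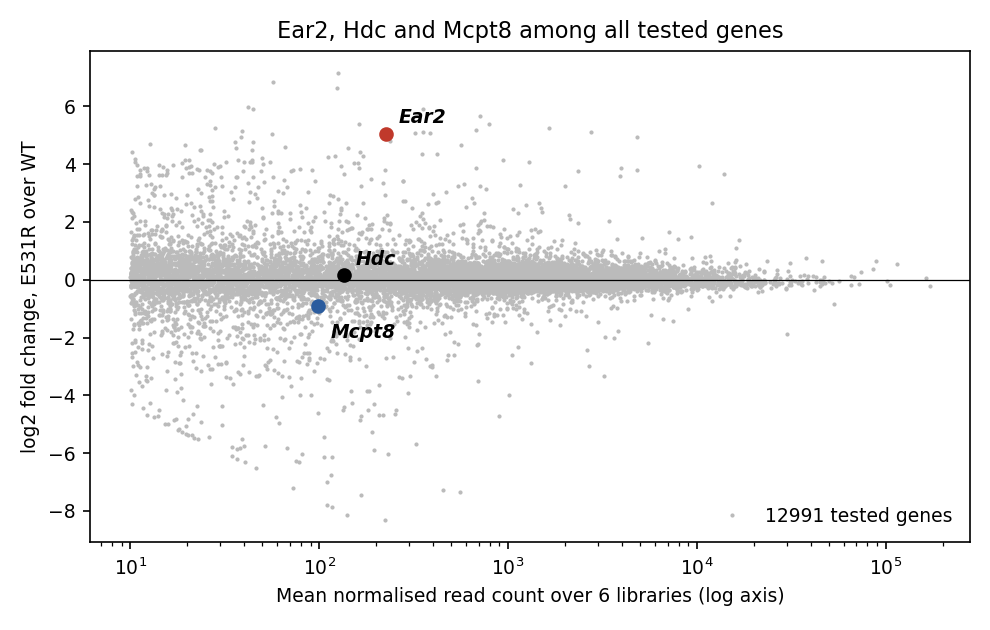
Grey points are the 12991 tested genes; the x axis (log) is the mean normalised read count of the 6 libraries, and the y axis is the log2 fold change, E531R over WT. The 3 tested genes of the set are marked: Ear2 at 5.05, Hdc at 0.16 and Mcpt8 at -0.92.

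The stretches upstream of these 4 genes are shown because genes with nearly the same upstream sequence differed widely in reads. Each runs from 250 to 81 bases before the RefSeq start (GRCm38.p6), read in the direction of the gene. The RefSeq starts of Ear1 and Ear6 lie inside the gene spans that GENCODE gives. For Ear6 the end of the 250 bases, past the stretch shown, is thus within the annotated gene. Capitals mark the C/EBP-type letters TTGCNNAA, searched on both strands, where they occur.
Ear2, chr14:44102404-44102573, strand plus: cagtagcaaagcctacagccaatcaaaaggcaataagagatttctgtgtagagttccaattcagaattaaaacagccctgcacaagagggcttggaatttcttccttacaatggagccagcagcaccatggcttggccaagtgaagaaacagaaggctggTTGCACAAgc
Ear1, chr14:43819720-43819889, strand minus: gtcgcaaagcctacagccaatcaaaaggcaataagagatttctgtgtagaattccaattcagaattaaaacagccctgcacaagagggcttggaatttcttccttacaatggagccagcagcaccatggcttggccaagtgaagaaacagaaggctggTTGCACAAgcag
Ear10, chr14:43923677-43923846, strand minus: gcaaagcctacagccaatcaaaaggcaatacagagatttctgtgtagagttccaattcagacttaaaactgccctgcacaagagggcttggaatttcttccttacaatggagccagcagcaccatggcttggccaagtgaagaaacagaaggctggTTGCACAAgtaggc
Ear6, chr14:51853518-51853687, strand plus: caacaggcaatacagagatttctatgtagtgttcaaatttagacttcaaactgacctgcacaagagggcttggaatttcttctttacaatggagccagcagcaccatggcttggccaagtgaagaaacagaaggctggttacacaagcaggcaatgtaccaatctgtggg
With gaps counted as differences, the 250 bases before the start were 97.6% identical between Ear2 and Ear1, 90.6% between Ear2 and Ear10 and 77.3% between Ear2 and Ear6. The alignment of Ear2 with Ear6 held 16 mismatches and 46 gap positions, and that with Ear10 held 14 and 10. The lower share of Ear6 thus comes mostly from gaps, which also arise where windows begin at different points of a shared sequence. The letters TTGCNNAA occurred once each before Ear1, Ear2 and Ear10, beginning 92, 90 and 94 bases before the start, and they were not found before Ear6. They occur in 9.56% of 32851 such upstream windows. The GATA letters AGATAA, present in 9.99% of windows, and their core GATAA, present in 22.6%, were found before none of these 4 genes. Ear2 and Ear10, with 437 and 0 normalised read counts in E531R cells, both hold TTGCNNAA in this window, and the split of reads between them is uncertain. Whether these letters bear on the reads was not tested. A match describes letters only and does not show that a factor binds there.

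Few genes near the Ear2 locus had reads. Within 250 kb of Ear2, 25 other rows of the table were annotated, of which 22 had 0 reads in all libraries and none reached the mean for testing. Within 250 kb of Ear6, 7 of 25 neighbours were tested, and 2 were higher and 1 lower. The zinc transporter gene Slc39a2 rose from 85.3 to 292 and the exchange factor gene Arhgef40 from 144 to 251 (means of 3; limma adjusted p = 0.000215 and 0.00362). Ndrg2 passed only at the edge of the threshold (log2 fold change -0.40, limma adjusted p = 0.0497), and its call was lost when any library but WT replicate 3 was left out (limma adjusted p from 0.0591 to 0.173).

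In the wider ribonuclease A family 4 of 17 genes with a row were tested, with 1 higher (Ear2), 1 lower and a median log2 fold change of -0.71, against 0.01 over all tested genes. The lower one was Rnase4, a ribonuclease of broad expression, which fell from 94.1 ± 14.1 to 49.4 ± 13.3 (SD, n = 3 per group; limma adjusted p = 0.0331). Its call was lost without WT replicate 1 or 2 (limma adjusted p = 0.0677 and 0.0913) and without E531R replicate 1, 2 or 3 (0.0713, 0.0686 and 0.055). Rnase10 did not pass, with 17.1 ± 1.08 against 7.69 ± 3.45 and a log2 fold change of -1.13 (limma adjusted p = 0.0538). It passed without E531R replicate 2 (limma adjusted p = 0.027) and without WT replicate 3 (0.03). Rnase10 reached the minimum mean only through WT, so its being tested already favoured a difference. Rnase6, a gene of monocytes and macrophages, had 0 reads in WT and 9 in E531R. With WT set at a group floor of 3 reads the ratio is 2.38, which leaves out counting error and is no lower bound. Ear14 and the pseudogene Ear-ps2 had 0 reads in all libraries.

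The eosinophil granule proteins were close to unread. Prg2, the major basic protein of eosinophil granules, on chromosome 2 (84980461 to 84983632), had 0, 0 and 0.787 normalised read counts in WT replicates 1, 2 and 3 and 0.695, 2.92 and 3.89 in E531R replicates 1, 2 and 3. That is 1 read against 8, a ratio of 6.34 with a counting interval of 0.850 to 281, which includes no difference. The groups overlapped, and the E531R values sit at or under the floor of 3 reads in 2 of 3 libraries. Epx, the eosinophil peroxidase, on chromosome 11 (87864000 to 87875536), had 3 reads over the WT libraries, all in replicate 1, and 1 over the E531R libraries, in replicate 3. Its read ratio was 0.264 with a counting interval of 0.00503 to 3.29.

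Neighbours of Prg2 and Epx ranged from a few reads to very high levels. Prg3, a homologue of Prg2 that lies 4.58 kb away, had 2 reads in WT and 5 in E531R. P2rx3, an ATP-gated channel gene 15.0 kb from Prg2, rose from 455 to 1350 (limma adjusted p = 0.000381). Mpo, the myeloperoxidase of neutrophil granules, lies 59.6 kb from Epx and rose from 93563 ± 7296 to 137253 ± 1862 (SD, n = 3 each; log2 fold change 0.56 and limma adjusted p = 0.00631). The haem peroxidases had 2 of 5 tested, with 1 higher, 0 lower and a median log2 fold change of 0.63. Within 250 kb of Epx, 2 of 14 tested neighbours were higher and 0 lower, Mpo and Rnf43, a ubiquitin ligase gene that rose from 30.4 to 195 (limma adjusted p = 8.66e-05). Of 7 tested neighbours of Prg2, P2rx3 alone passed.

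Mcpt8, mast cell protease 8, is a serine protease that marks mouse basophils, and it lies on chromosome 14 at 56082166 to 56085273, on the minus strand. It had normalised read counts of 118, 144 and 128 in WT replicates 1, 2 and 3 and 68.1, 58.4 and 78.9 in E531R replicates 1, 2 and 3. Every E531R library lay below every WT library, as in 22.8% of tested genes. The means were 130 ± 12.8 and 68.4 ± 10.2 (SD, n = 3 each), and the log2 fold change was -0.92 (SE 0.15; limma adjusted p = 0.00625).

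The stretch upstream of Mcpt8, from 250 to 81 bases before the RefSeq start, is shown with RUNX-type letters (TGTGGT, both strands) in capitals.
Mcpt8, chr14:56085278-56085447, strand minus: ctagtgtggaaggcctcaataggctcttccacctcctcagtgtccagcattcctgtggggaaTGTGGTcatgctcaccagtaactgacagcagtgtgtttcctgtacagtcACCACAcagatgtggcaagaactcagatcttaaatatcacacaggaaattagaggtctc
These letters began 188 and 139 bases before the start, and 14.0% of windows hold them at least once. The ETS-type letters GAGGAA were found once, 65 bases before the RefSeq start, outside the stretch shown, and occur in 23.3% of windows. That start lies inside the gene span that GENCODE gives, and so does the GAGGAA match. The GATA letters were not found in the 250 bases.

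Mcpt8 sits in a cluster of granule protease genes. Its neighbour Ctsg, the cathepsin G of neutrophil primary granules, lies 14.6 kb away and fell from 68375 ± 11394 to 37851 ± 1718 (SD, n = 3 each; log2 fold change -0.84 and limma adjusted p = 0.00384). The coding sequences of Mcpt8 and Ctsg were 55.6% identical, with no stretch of 50 bases in common with another gene. Of 24 neighbours within 250 kb of Mcpt8, 4 were tested, Ctsg alone passed, and 14 had 0 reads throughout. Khnyn, Sdr39u1 and Gm5801 had log2 fold changes of 0.06, -0.34 and -0.14 and did not pass (Sdr39u1 passed without WT replicate 3, limma adjusted p = 0.0112). Of the granzymes and mast cell chymases 18 had a row and 3 were tested, with 0 higher and 2 lower, Mcpt8 and Ctsg, and a median of -0.84. The third, Gzmm, had 16.2 ± 2.72 and 17.9 ± 4.92.

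**Figure D3:**
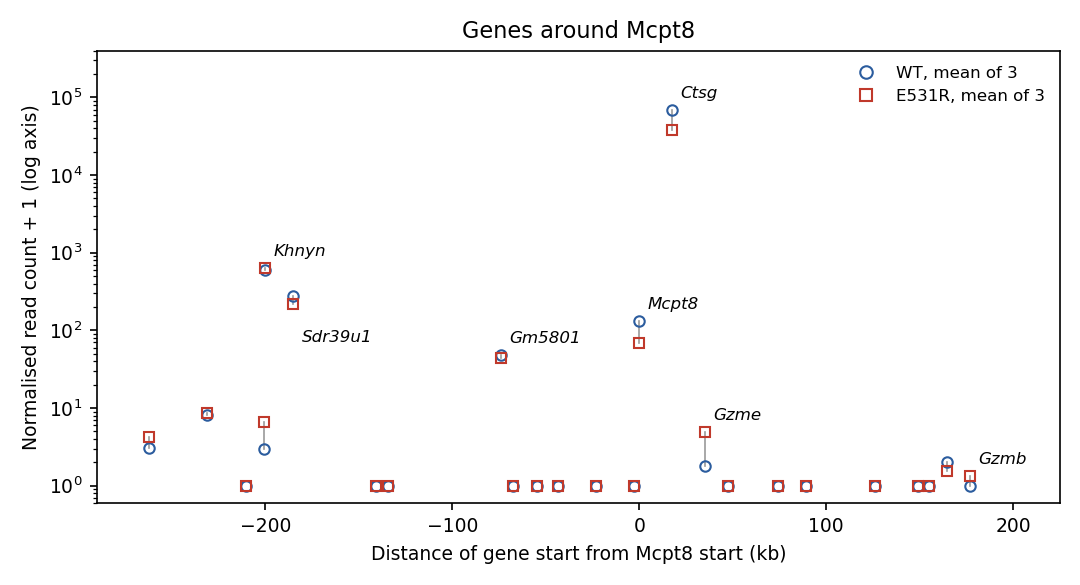
Mean normalised read count plus 1 on a log y axis of Mcpt8 and its neighbours, placed on the x axis by the distance of their start from that of Mcpt8 in kb, in the order of the chromosome (blue circles WT, red squares E531R, each a mean of 3). Mcpt8 and Ctsg are the 2 genes past the threshold, both lower in E531R, and most protease genes of the cluster lie at 0 reads.

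Gzmb, granzyme B, a cytotoxic protease that activated mast cells and basophils can also store, lies 174 kb from Mcpt8 at 56258838 to 56262260. It had 0 reads in WT and 1 in E531R, both under the floor. Gzme, between them, had 2 and 13 reads. Its values were 1.60, 0 and 0.787 in WT and 2.78, 2.92 and 5.84 in E531R, and its mean lay under the minimum for testing. Near Gzmb, Rnf17, a germ cell gene, fell from 23.0 ± 12.8 to 1.21 ± 1.53 (SD, n = 3 per group; limma adjusted p = 0.0119), a call lost without E531R replicate 1 (0.0516), and it reached the minimum mean only through WT.

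Hdc, histidine decarboxylase, the enzyme that makes histamine, lies on chromosome 2 at 126593667 to 126619299. It had normalised read counts of 132, 117 and 131 in WT replicates 1, 2 and 3 and 150, 133 and 143 in E531R replicates 1, 2 and 3. The E531R values lay just above the WT values, by less than 1 unit at the nearest pair, a separation in this direction seen in 21.2% of tested genes. The means were 127 ± 8.61 and 142 ± 8.43 (SD, n = 3 each), and the log2 fold change of 0.16 (SE 0.11) did not pass (limma adjusted p = 0.365). Per kb of transcript the E531R level of Mcpt8 was 81.9 ± 12.2 and that of Hdc 59.4 ± 3.52, against 155 ± 15.3 and 53.1 ± 3.60 in WT.

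Other genes of histamine handling were tested in 5 of 10 cases including Hdc, with 1 higher, 1 lower and a median log2 fold change of 0.30. Slc22a3, a transporter that carries histamine and other organic cations, had normalised read counts of 611, 491 and 551 in WT and fell to 41.7, 26.3 and 39.9 in E531R replicates 1, 2 and 3 (log2 fold change -3.92, limma adjusted p = 2.79e-05). Hrh2, the histamine H2 receptor, rose from 16.8 ± 2.59 to 35.6 ± 4.01 (limma adjusted p = 0.0117), a call lost without E531R replicate 2 or 3 (limma adjusted p = 0.056 and 0.0627). Hnmt, which inactivates histamine, and Slc18a2, which loads it into granules, had log2 fold changes of 0.30 and 0.52 and did not pass (limma adjusted p = 0.295 and 0.293).

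None of the 5 tested neighbours of Hdc and none of the 3 of Cpa3 within 250 kb passed. Cpa3, carboxypeptidase A3 of mast cell and basophil granules, on chromosome 3 (20215620 to 20242181), had 0 reads in WT and 2 in E531R, both in replicate 2. Both groups lay under the floor, so no fold is given. Of 7 tryptase-family genes 1 was tested, Prss57, a protease of neutrophil primary granules, with 907 ± 205 against 1265 ± 79.9 (limma adjusted p = 0.0697). Prss57 passed without WT replicate 3 (limma adjusted p = 2.11e-07) and with DESeq2 (adjusted p = 0.0261).

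Levels per kb of transcript ordered the genes differently in the 2 groups. In WT cells the order was Mcpt8, Hdc (given above) and Ear2 at 17.1 ± 3.83 per kb (SD, n = 3), with the other 7 below 1 per kb. In E531R cells Ear2 came first at 608 ± 89.7, before Mcpt8 and Hdc, followed by Ear6 at 18.1 ± 4.51 and Ear1 at 5.78 ± 3.83 per kb. Prg2 followed at 2.99 ± 1.96, not separable from Ear1 by this spread, and Cpa3, Gzmb, Epx and Ear10 lay below 0.5 per kb.

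The defining markers of the 3 cell types were then set beside these genes. Of 6 eosinophil markers Siglecf, a sialic acid receptor that alveolar macrophages also carry, was the only one tested, and it rose from 55.3 ± 8.79 to 132 ± 7.39 (SD, n = 3 each; log2 fold change 1.25 and limma adjusted p = 0.00143). Il5ra, the interleukin 5 receptor of eosinophils, had 0 reads in all libraries, and Ccr3, the eotaxin receptor, had 1 read in all. The summed level of the 6 markers ran from 48.2 to 66.1 in WT and from 127 to 142 in E531R, nearly all of it Siglecf. In a wider list of 11 eosinophil-expressed genes, Siglecf among them, 6 were tested, with 4 higher, 2 lower and a median of 1.60. The higher ones besides Siglecf were Adgre1, S100a9 and Ltc4s, which macrophages, neutrophils or mast cells express too. Ltc4s averaged 3.11 in WT and reached the minimum mean only through E531R, so its being tested already required a difference. The lower ones were Fcgr3 and Thbs1, whose log2 fold changes were -0.56 and -0.57. The Fcgr3 call was lost without E531R replicate 2 (limma adjusted p = 0.0522), and the Thbs1 call without WT replicate 1 or 2 (0.06 and 0.0707) or E531R replicate 2 or 3 (0.0748 and 0.0674).

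Of 8 basophil markers 4 were tested, with 1 higher, 2 lower and a median of -0.39. Cyp11a1, a steroid-making enzyme listed here as a basophil gene, fell from 1800 ± 218 to 294 ± 19.8 (SD, n = 3 each; log2 fold change -2.60 and limma adjusted p = 1.26e-05). Cd200r4, an activating surface receptor, rose from 7.85 ± 1.499 to 35.5 ± 3.77 (log2 fold change 2.05, limma adjusted p = 0.000947), and it too reached the minimum mean only through E531R. Ms4a2, the beta chain of the IgE receptor, had 121, 123 and 40.9 in WT replicates 1, 2 and 3 and 82.7, 101 and 98.3 in E531R. It did not pass over all libraries (log2 fold change 0.14, limma adjusted p = 0.837), and without the low WT replicate 3 it was lower in E531R (log2 fold change -0.38, limma adjusted p = 0.0346). Fcer1a, the alpha chain that binds IgE, Prss34 and Cd200r3 had 0 reads in all libraries, and Il4 had 6.45 ± 4.14 and 6.30 ± 1.46. The summed level of the list ran from 1916 to 2231 in WT and from 468 to 526 in E531R, most of it Cyp11a1.

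Of 13 mast cell markers 9 had 0 reads in all libraries, among them the chymases Cma1 and Mcpt4 and the receptors Mrgprb1 and Mrgprb2. The tryptases Tpsab1 and Tpsb2 had 1 and 2 reads, all in E531R libraries. Ms4a2 was the only marker tested, so the list's summed level, 40.9 to 123 in WT and 82.7 to 105 in E531R, is close to that gene's. Most defining markers of the 3 cell types thus had few or no reads, so the values above describe the listed genes and are no measure of those cells.

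**Figure D4:**
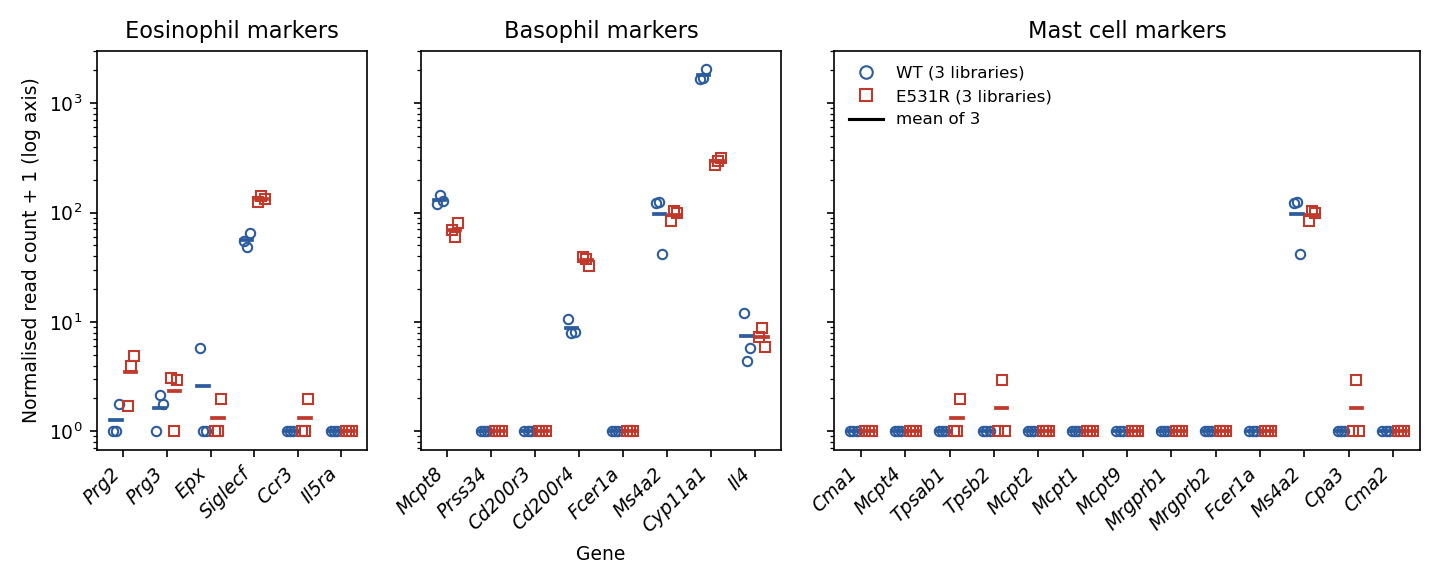
Normalised read count plus 1 on a log y axis for defining markers of eosinophils, basophils and mast cells (panels; genes on the x axis), with a symbol for each library (WT as blue circles, E531R as red squares) and a bar at the mean of 3. Siglecf, Mcpt8, Cd200r4, Ms4a2 and Cyp11a1 stand well above 0, and 9 of 13 mast cell markers lie at 0 in every library.

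Of 21 tested transcription factors of these lineages, 8 were higher and 1 lower, with a median log2 fold change of 0.36. Of all tested genes 10.4% were higher and 9.53% lower. The lower one was Gata2, a regulator of mast cells and basophils, at 95.8, 57.4 and 96.0 in WT replicates 1, 2 and 3 and 29.2, 29.2 and 39.9 in E531R. Its log2 fold change was -1.29 (SE 0.25; limma adjusted p = 0.0119), and the call was lost without E531R replicate 1 or 2 (limma adjusted p = 0.0579 and 0.0568). Gata1, which eosinophils need, had 4 reads in WT and 1 in E531R. Cebpe, a factor of neutrophil and eosinophil granule genes, rose from 2088 ± 554 to 3830 ± 134 (SD, n = 3 each; log2 fold change 0.91 and limma adjusted p = 0.0103), a call lost without E531R replicate 3 (0.0534). Id2 rose 7.82-fold (limma adjusted p = 2.08e-05), and Bhlhe40, Tal1 and Runx1 rose with log2 fold changes of 1.15, 1.26 and 0.54. Mitf, a mast cell regulator, did not pass (190 ± 51.3 and 249 ± 28.5, limma adjusted p = 0.227). Without WT replicate 3, 12 factors were higher and 4 lower, where 24.3% of all tested genes were higher and 23.1% lower. The same shares apply to the counts without WT replicate 3 in the lists below. Without E531R replicate 1 or 3 the number of factors higher was 5 or 4. Without WT replicate 2, 2 were lower.

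Among cytokine receptors 6 of 9 tested were higher and 1 lower, with a median of 0.47. Il3ra, the interleukin 3 receptor alpha chain, fell from 663 ± 137 to 230 ± 10.4 (SD, n = 3 each; log2 fold change -1.50 and limma adjusted p = 0.000528). Of other chains of this receptor family, Csf2ra, Csf2rb and Csf2rb2 rose, and Il5ra had 0 reads in all libraries. The Csf2rb call was lost when any library but WT replicate 3 was left out (limma adjusted p from 0.06 to 0.0911). Csf2ra, the GM-CSF receptor alpha chain, had a log2 fold change of 0.92, and Csf2rb2, the beta chain of the mouse interleukin 3 receptor, had 0.83 (limma adjusted p = 0.000187 and 0.00072). Csf1r, the M-CSF receptor, rose from 178 ± 38.0 to 1016 ± 64.7 (limma adjusted p = 7.68e-05). Kit, the stem cell factor receptor of mast cells and of the selected progenitors, had 3587 ± 100 and 3335 ± 4.07 and did not pass (limma adjusted p = 0.28). Without WT replicate 3 it passed (log2 fold change -0.11, limma adjusted p = 0.0212), and 7 receptors were then higher and 2 lower. Without E531R replicate 1 or 2, 3 receptors were higher. Il1rl1, the interleukin 33 receptor of mast cells and basophils, had 0 reads in WT and 2 in E531R.

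The IgE receptor and its signalling genes had 4 higher and 2 lower of 13 tested and a median of 0.24. Without WT replicate 3, 7 were higher and 4 lower, without E531R replicate 1, 2 were higher, without WT replicate 1 or 2, 1 was lower, and without any 1 E531R library 0 were lower. Plcg1, a phospholipase, rose from 354 ± 8.04 to 866 ± 12.3 (SD, n = 3 each; limma adjusted p = 3.94e-05), and the kinase gene Lyn from 2149 ± 90.9 to 2853 ± 56.4 (limma adjusted p = 0.00466). Fcer1g, the shared signalling chain of Fc receptors, did not pass, with a log2 fold change of 0.26 (limma adjusted p = 0.0888), and passed without WT replicate 3 (0.33, limma adjusted p = 1.74e-05).

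Granule matrix and protease-processing genes had 6 higher and 2 lower of 16 tested and a median of 0.12. Without WT replicate 3, 10 were higher and 4 lower, and without any other single library 1 was lower. Srgn, the serglycin core on which granule proteases are packed, had 20324 ± 1243 and 18296 ± 969 (SD, n = 3 each) and did not pass (limma adjusted p = 0.254; 0.00106 without WT replicate 3). Ctsc, which activates granule proteases such as cathepsin G, rose from 2064 ± 43.5 to 5495 ± 91.5 (limma adjusted p = 1.32e-05). Chst15, a sulfotransferase for the chondroitin chains of mast cells, rose with a log2 fold change of 1.37, and Hs6st1, a heparan sulfotransferase, fell with -0.72 (limma adjusted p = 8.66e-05 and 0.00345). Stfa1, a cysteine protease inhibitor, rose from 645 ± 34.2 to 8993 ± 598 (limma adjusted p = 1.44e-06). Cytokine genes had 3 higher and 0 lower of 4 tested and a median of 0.82, and Il3, Il5, Il9 and Il13 had 0 reads in all libraries.

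**Figure D5:**
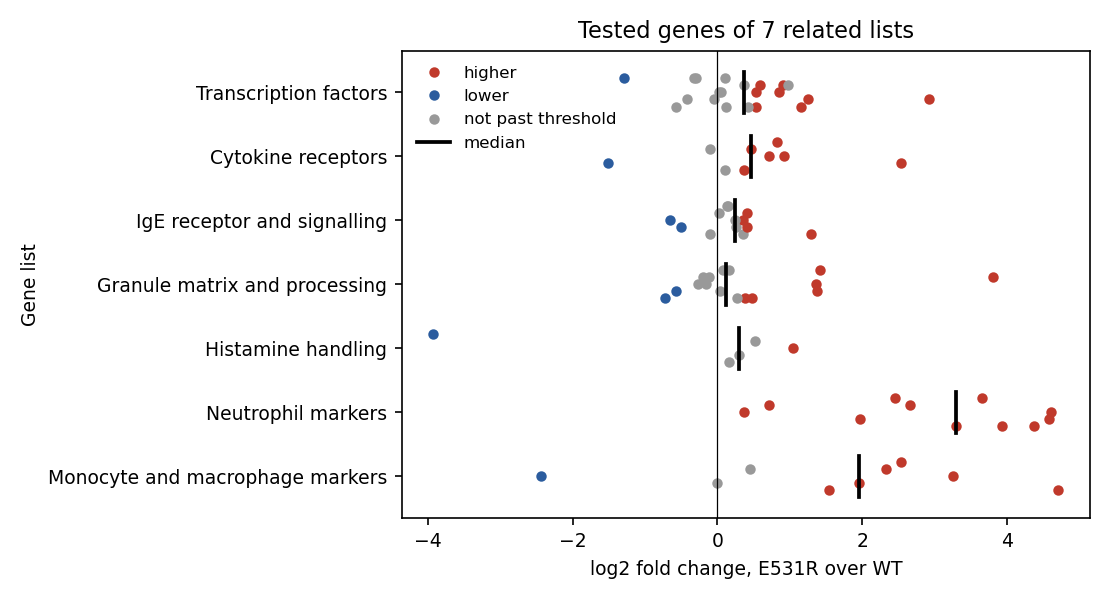
Each point is a tested gene of 1 of 7 lists (y axis), with its log2 fold change (E531R over WT) as x axis. Red is higher and blue lower past the threshold, grey is not past it, and a black bar gives the median of a list. Medians lie between 0.12 and 0.47 for the first 5 lists and at 3.30 and 1.95 for the neutrophil and monocyte lists.

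Markers of other cell types moved with the same groups. Of 11 tested neutrophil markers 11 were higher, with a median log2 fold change of 3.30, and the list's summed level ran from 8320 to 10876 in WT and from 72959 to 80291 in E531R. Ltf, the lactoferrin of secondary granules, had 31.7 ± 4.65 in WT and rose 21.2-fold to 672 ± 70.1 (SD, n = 3 per group). Of 9 tested monocyte and macrophage markers 6 were higher and 1, Ccr2, was lower, with a median of 1.95 and summed levels of 26550 to 31371 in WT and 29126 to 31971 in E531R. Ace, expressed in some monocytes, had 0 reads in WT and 90 in E531R. With WT set at a group floor of 3 reads the ratio is 23.8, which leaves out counting error and is no lower bound. C1qa, C1qb and C1qc had at most 2 reads in either group. Among the neutrophil genes the call of Cxcr2 was lost without WT replicate 1 or any 1 E531R library (limma adjusted p from 0.106 to 0.169), and that of Csf3r without E531R replicate 1 or 2 (0.057 and 0.0721). In the monocyte list the Cx3cr1 call was lost without WT replicate 1 or any 1 E531R library (limma adjusted p from 0.0852 to 0.142). It was also lost with DESeq2 (adjusted p = 0.0628). Mmp9 of the neutrophil list and Cx3cr1 and Ace of the monocyte list reached the minimum mean only through E531R. The part of these cell types in the Ear2 and Ear6 results was not tested.

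NK and T cells also hold granzyme B, and their markers other than Nkg7 were scarce. Of 13 NK and T cell markers 6 had 0 reads throughout and 1 was tested, Nkg7, a granule protein that fell from 677 ± 85.7 to 276 ± 14.3 (SD, n = 3 each; log2 fold change -1.28 and limma adjusted p = 0.000292). Summed levels of that list were 624 to 779 in WT and 261 to 287 in E531R, nearly all Nkg7, with Gzma, Klrb1c, Klrd1, Ncr1, Cd3e and Cd8a at 0. Of plasmacytoid dendritic markers 0 of 3 tested passed (median -0.07; summed levels 2419 to 2809 and 2359 to 2457), and Siglech had 1 read. Without WT replicate 3, 1 of these, Tcf4, passed as lower (log2 fold change -0.33, limma adjusted p = 2.3e-05). Of erythroid and megakaryocyte markers 1 of 3 tested was higher, the platelet chemokine Pf4 (5.48 ± 2.84 to 27.6 ± 7.05, limma adjusted p = 0.00753), with a list median of 0.77. Pf4 reached the minimum mean only through E531R, and at a minimum mean of 50 it was not tested.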

How the data were processed

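The values are gene read counts of 6 libraries that the authors divided by 1 size factor per library, deposited as a normalised signal in 1 table of 47593 gene rows. The submitters' processing notes name the build GRCm38 and the tools HISAT2, featureCounts, DESeq2, SAMtools, cutadapt and FastQC. Their versions, the annotation, the read length and the use of strand were not given in the sources used here. Beside the values, the deposited table holds the authors' log2 fold changes (WT over E531R, sign turned here), score statistics and adjusted p-values. All values (100%, within 0.001 reads) were whole multiples of what 1 read is worth in their library, so whole reads were recovered, 1 read being worth 0.695 to 1.60 units. On these reads edgeR called 1393 genes higher and 1251 lower.

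The test was limma 3.58.1 with trend (R 4.3.3) on log2(value + 1), where 1 is the pseudocount, for the 12991 genes averaging 10 or more. It was two-sided, adjusted by Benjamini-Hochberg and called under 0.05. On this scale the fold changes of low genes come out too small; folds without log2 are ratios of group means. Other settings tried were a pseudocount of 0.5 or 10, a minimum mean of 50 or none, TMM rescaling, edgeR 4.0.16, DESeq2 1.42.0, a replicate block and leaving out each library. Read ratios have exact Clopper-Pearson intervals at 95% on summed reads scaled by size factor, which hold counting error alone: without molecular identifiers, reads are not independent molecules. The scaling takes most genes as equal between groups.

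The members and the 21 related lists, from general knowledge, were chosen with earlier results of these data known. The counts of 1 of these lists are not reported here by themselves. Named genes are all members, defining markers, and up to 6 genes of each list or neighbourhood with the smallest adjusted p; untested genes, genes that did not pass and genes named after their values were seen are given as values. Positions and transcript lengths are from GENCODE M21 (45250 rows matched by symbol), with the longest protein-coding transcript as length. Upstream windows are from RefSeq on GRCm38.p6, with 9 of 10 members matched.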

Additional observations from a re-analysis of the deposited data

How the results depend on the processing

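Ear2 and Mcpt8 kept their direction and stayed past the threshold under all 16 alternatives run, with log2 fold changes of 4.32 to 5.17 and -1.02 to -0.81 and adjusted p up to 0.000293 and 0.0345. Hdc passed under 0 of 16, with 0.10 to 0.21 and adjusted p of 0.226 to 0.718. The count of members called higher went from 1 to 2, with Ear6, under limma with no filter and under edgeR or DESeq2 with at least 10 reads (the last 2 added after the data were seen), because these settings test genes under the mean of 10. Over all genes, leaving out 1 library gave 819 to 3159 higher and 746 to 2999 lower, the highest without WT replicate 3 and the lowest without E531R replicate 1. In the 21 related lists together, 50 genes were higher and 15 lower, and leaving out 1 library gave between 9 and 25 lower, from E531R replicate 2 to WT replicate 3. Leaving out 1 library moved the log2 fold change of Ms4a2 between -0.38 and 0.40 and that of Ly6c2 between -0.0932 and 0.13. Both passed only without WT replicate 3 (-0.38 and 0.13), with the opposite sign to the value over all libraries. Of 2452 values of 155 tested genes (members, lists and neighbours) under alternatives, 2296 kept their side of the threshold, 100 lost the call, 54 gained one and 2 reversed. Counts within lists that moved by over 1.5 times under settings other than leaving out a library were these, with those of the replicate block given after them. With no filter, 3 ribonuclease and 2 erythroid genes were higher, and 1 IgE and 1 granule matrix gene lower. With at least 10 reads, edgeR and DESeq2 called 2 ribonuclease and 2 erythroid genes higher. DESeq2 called 3 transcription factors, 1 IgE gene and 1 granule matrix gene lower and 1 tryptase-family gene higher. A minimum mean of 50 left 0 higher among basophil markers, histamine genes and erythroid markers, and a pseudocount of 10 gave 2 lower ribonuclease genes. The causes were not tested.

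With the replicate number as a block 1179 genes were higher and 1062 lower, and the 3 tested members kept their calls. With the block Rnase4 (limma adjusted p = 0.0657), Serpinb9, Cxcr2, Cx3cr1 and the neighbour Ndrg2 lost their calls, and Prss57 (0.0388) and the neighbours Timm10 and Mir142b gained one. That left 0 ribonuclease genes and 1 granule matrix gene lower and gave 1 tryptase-family gene higher. The deviations of same-numbered libraries correlated across genes at 0.0017, 0.19 and 0.24 for numbers 1, 2 and 3. Those of differently numbered libraries ran from -0.23 to 0.18. These values do not settle whether the numbers pair the samples. The labels state no pairing, so the main fit did not use it. Depth limits the 7 untested members, whose WT values rest on 0 to 3 reads.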

Other observations

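Enzymes of the lipid mediators that eosinophils, basophils and mast cells release rose and fell, 3 being higher and 1 lower of 7 tested, at a median log2 fold change of 0.32. Alox5, the 5-lipoxygenase that starts leukotriene synthesis, had normalised read counts of 948, 1014 and 1358 in WT replicates 1, 2 and 3 and 6.25, 9.73 and 2.92 in E531R replicates 1, 2 and 3 (log2 fold change -7.34, SE 0.36, limma adjusted p = 2.62e-05). Ltc4s, the leukotriene C4 synthase of eosinophils and mast cells, rose from 3.11 ± 1.498 to 29.8 ± 5.87 (SD, n = 3 each; limma adjusted p = 0.00141). Hpgds, the haematopoietic prostaglandin D synthase of mast cells, rose from 48.8 ± 20.5 to 181 ± 17.6 (limma adjusted p = 0.00672), with WT replicate 3 lowest at 25.2, and Ptgs1 rose from 3469 ± 124 to 6532 ± 65.3 (limma adjusted p = 0.000101). Ltc4s reached the minimum mean for testing only through E531R and Alox5 only through WT. Without WT replicate 3, 5 of these genes were higher and 1 lower.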
